A study of Mus musculus with 6 samples.

Results

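The Hedgehog signalling genes described here are the ligands Dhh, Ihh and Shh, the receptor Ptch1, the signal transducer Smo, the decoy receptor Hhip and the transcription factors Gli1, Gli2 and Gli3. They are the 9 rows of the authors' deposited Cuffdiff gene table whose gene name equals one of these symbols, among 55331 genes. The table gives 7 of the 9 a test, as it does 22048 of all genes, while Ihh and Shh are marked as not tested. Polyadenylated RNA came from whole testes of mice aged 35 days and of mixed strain. The 3 Ptbp1_cKO libraries carry the genotype Ptbp1fl/fl; Amh-Cre+/- and the 3 control libraries the genotype Ptbp1fl/fl, so floxed Ptbp1 alleles are shared by both groups. Amh-Cre is a recombinase driven by the promoter of anti-Müllerian hormone, active in Sertoli cells, which support the germ cells inside the tubule. No group carried Amh-Cre without the floxed gene, so an effect of the deletion and one of the transgene cannot be told apart. The study asks what the RNA-binding protein PTBP1 does in Sertoli cells.

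In the absence of ligand the Patched receptors hold Smoothened, the product of Smo, inactive, and GLI proteins are processed into repressors. Binding of a Hedgehog ligand to Patched releases Smoothened, and full-length GLI proteins then activate targets that include Ptch1, Gli1 and Hhip themselves. In the mouse testis Desert hedgehog, the product of Dhh, is made by Sertoli cells and acts on the Leydig and peritubular myoid cells outside the seminiferous tubule, whose differentiation needs it.

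The deposited table holds 1 FPKM value per group, without values per library, so the levels below are the authors' group values and carry no SD. Low values moved in steps that gave the weight of 1 fragment, from which the libraries held 65100000 to 72000000 normalised fragments in Ptbp1_cKO and 66400000 to 86900000 in control. One FPKM over an effective length of 1 kb rested on about 204 fragments in Ptbp1_cKO and 226 in control. Separate animals are not stated in the labels, so p-values may measure only technical spread among these libraries. Ptbp1 itself stood at 46.7 FPKM in Ptbp1_cKO and 49.97 FPKM in control (q = 0.999 in the authors' deposited table); a value for a whole testis and a whole gene does not check a deletion in one cell type. In whole-tissue RNA, fewer cells of a type and less RNA per cell cannot be told apart.

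Dhh was the most abundant of the 9 genes in both groups and Shh the least, and the order of all 9 was the same in Ptbp1_cKO and control. None of the 7 tested genes passed the threshold of q under 0.05 in either direction, set against 1.16% of all tested genes in the authors' deposited table. Gli1 alone had an unadjusted p under 0.05 in that table, as did 8.98% of all tested genes, and with the p computed from the deposited statistic under a normal distribution (0.274 for Gli1) it no longer did. FPKM was higher in Ptbp1_cKO for Dhh, Ptch1, Smo, Gli1 and Hhip and lower for Gli2 and Gli3, that is, higher for 5 of 7. Of all tested genes 50.9% were higher. At the levels of these 7 genes the share was 56.0% for a mean of 0.1 to 1 FPKM and 57.8% for 1 to 10 FPKM. The Hedgehog genes were chosen with earlier results of these data known, so these counts are no test against the shares. Among the 7 tested genes the values farthest from equality were those of Gli1, at 1.70 times, and Gli2, at 0.615 times the control FPKM.

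**Figure D1:**
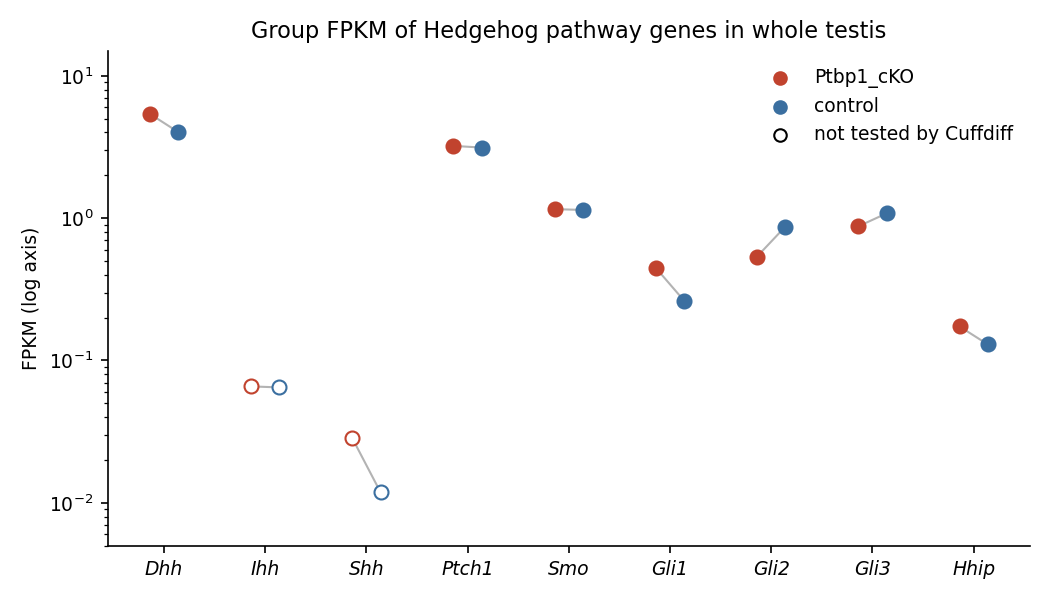
FPKM of each Hedgehog gene on a log axis, with Ptbp1_cKO to the left of control and a line joining both values of a gene. Open points are genes that Cuffdiff did not test. Dhh lies at the top, at 5.41 FPKM in Ptbp1_cKO and 4.03 FPKM in control, and the lines of Gli1 and Gli2 slope in opposite ways.

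Dhh (ENSMUSG00000023000.5, chromosome 15, 98891152 to 98898540, minus strand, mm10) encodes the ligand made by Sertoli cells. It had 5.41 FPKM in Ptbp1_cKO and 4.03 FPKM in control, which was 98.3% of the summed FPKM of the ligands in Ptbp1_cKO and 98.1% in control. The log2 fold change was 0.42, with unadjusted p = 0.128 and q = 0.761 in the authors' deposited table. If the deposited statistic is the fold change divided by its standard error, that error was 0.49 on the log2 scale, larger than the difference. The implied errors given below for other genes rest on the same reading. Of the 7987 tested genes with a mean of 1 to 10 FPKM, 11.1% had a change as far from 0 as that of Dhh or farther. Counting error is smaller: about 4385 fragments in Ptbp1_cKO and 3631 in control give a ratio of 1.34 with an exact binomial interval of 1.28 to 1.40, which leaves out the spread between libraries. These fragment numbers take the longest annotated transcript of 4242 bases as the source of all fragments.

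Reads at the Dhh locus may be shared between genes. The antisense gene Gm49442 covers 1107 of the 4399 annotated exon bases of Dhh and stood at 3.76 FPKM in Ptbp1_cKO and 4.36 FPKM in control, lower in Ptbp1_cKO where Dhh was higher. On the same strand, Rhebl1 shares 546 exon bases and stood at 1.90 FPKM in Ptbp1_cKO and 1.504 FPKM in control. Whether the authors' counting used strand is not given in the sources used here, so the level of Dhh is uncertain to that extent.

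Ihh, the ligand of growing bone and gut, and Shh, the ligand of limb and neural tube patterning, were the least abundant of the 9 genes. Ihh (chromosome 1, 74945315 to 74951672) had 0.0658 FPKM in Ptbp1_cKO and 0.0647 FPKM in control, or about 30 and 32 fragments over the 3 libraries of each group. Shh (chromosome 5, 28456815 to 28467256), which has 1 annotated transcript, had 0.0286 FPKM in Ptbp1_cKO and 0.0119 FPKM in control. Those values amount to about 15 fragments in Ptbp1_cKO and 7 in control, and the ratio of 2.41 has an exact binomial interval of 0.914 to 6.90 that covers counting error only. These counts do not separate the groups. Shh is also known from the epithelium of the mouse epididymis, and some epididymal transcripts differed between the groups. The 8 epididymis markers summed to 8.68 FPKM in Ptbp1_cKO and 0.0561 FPKM in control. Crisp1 alone supplied 5.90 FPKM of this in Ptbp1_cKO and 0.0482 FPKM in control. Of the 8, 5 were higher past the threshold, beside 0.458% of all tested genes in the authors' deposited table. That list holds genes already seen to differ in these libraries. The others of the list were not tested. Lcn8 was at 0 in both groups, Lcn9 had 0.0089 FPKM in Ptbp1_cKO and 0.0080 FPKM in control. Lcn5 had 0.0126 FPKM in Ptbp1_cKO and 0 in control. The part of these transcripts in the Shh value was not tested.

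The stretches of 250 bases before the RefSeq starts of Dhh and Ihh are shown because these ligands, of the same family, differed widely in level, at 4.03 against 0.0647 FPKM in control. Both are given 5′ to 3′ on the minus strand of GRCm38.p6, at chr15:98898541-98898790 for Dhh and chr1:74951673-74951922 for Ihh, with capitals marking the GC box GGGCGG on either strand.
Dhh: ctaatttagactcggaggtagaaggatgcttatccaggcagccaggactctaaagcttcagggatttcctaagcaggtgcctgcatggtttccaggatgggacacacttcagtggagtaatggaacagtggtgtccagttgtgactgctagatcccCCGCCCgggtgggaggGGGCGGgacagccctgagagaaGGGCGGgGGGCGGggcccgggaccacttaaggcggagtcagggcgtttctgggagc
Ihh: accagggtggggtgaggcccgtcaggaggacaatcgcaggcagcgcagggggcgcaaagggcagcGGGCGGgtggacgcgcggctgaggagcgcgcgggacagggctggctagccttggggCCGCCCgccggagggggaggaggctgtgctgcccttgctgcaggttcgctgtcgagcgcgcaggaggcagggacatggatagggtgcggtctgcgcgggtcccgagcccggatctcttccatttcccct
Dhh holds 4 GC boxes, 9 CpG dinucleotides and 59.6% G and C, while Ihh holds 2 GC boxes, 24 CpG dinucleotides and 72.0% G and C. Across all 32851 RefSeq windows of this length the median was 6 CpG dinucleotides and 52.4% G and C, and 32.7% held a GC box. Windows were found for 7 of the 9 genes, all but Shh and Gli1, and the box was in 6 of them, the exception being Smo. The TATA motif TATAAA was in 0 of the 7 windows and in 12.4% of all windows, on either strand. A GLI binding motif, GACCACCCA on either strand, was likewise in 0 of the 7 and in 0.225% of all windows. With so rare a motif, 0 in 7 windows is the usual outcome and tells nothing about these genes. These counts describe letters in a short window and say nothing about binding.

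**Figure D2:**
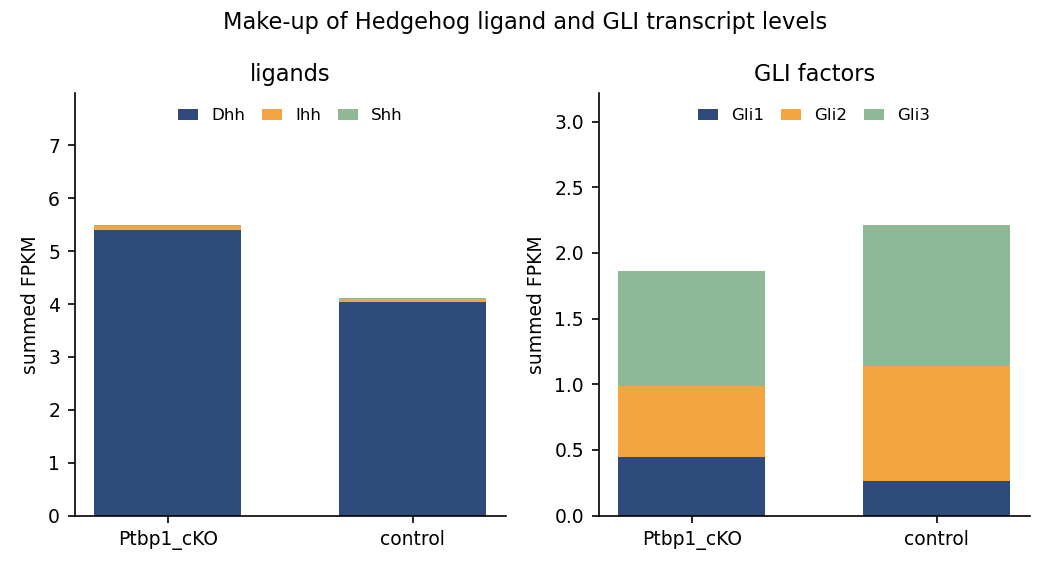
Summed FPKM of the ligands (left) and of the GLI factors (right), stacked by gene, with Ptbp1_cKO to the left of control. Dhh fills 98.3% of the ligand bar in Ptbp1_cKO and 98.1% in control, and the Gli1 part of the GLI bar is 24.0% in Ptbp1_cKO and 11.9% in control.

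At the receptor level the groups had nearly equal values. Ptch1 (chromosome 13, 63508328 to 63573598), the ligand receptor and itself a target of the pathway, had 3.22 FPKM in Ptbp1_cKO and 3.13 FPKM in control. Its log2 fold change was 0.04, the error implied by the statistic was 0.50, and q was 0.999 in the authors' deposited table. Smo (chromosome 6, 29735503 to 29761365), the membrane protein that Patched holds inactive, had 1.16 FPKM in Ptbp1_cKO and 1.14 FPKM in control, with a log2 fold change of 0.02, an implied error of 0.30 and q = 0.999 in the authors' deposited table. The errors, which rest on the reading of the statistic given for Dhh, are too wide to say that either gene was alike in both groups. Ptch1 stood at 2.78 times the FPKM of Smo in Ptbp1_cKO and 2.74 times in control.

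Hhip (chromosome 8, 79965851 to 80058006) encodes a membrane protein that binds and sequesters Hedgehog ligands and is induced by the pathway. Its level was the lowest of the 7 tested Hedgehog genes, at 0.173 FPKM in Ptbp1_cKO and 0.130 FPKM in control, resting on about 311 and 258 fragments. The log2 fold change of 0.42 had an implied error of 0.63, with unadjusted p = 0.204 and q = 0.873 in the authors' deposited table. Changes at least as far from 0 were found for 34.5% of the 6541 tested genes with a mean of 0.1 to 1 FPKM.

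Gli1 (ENSMUSG00000025407.7, chromosome 10, 127329882 to 127341974) encodes a GLI activator whose transcription is a usual readout of pathway activity. It had 0.447 FPKM in Ptbp1_cKO and 0.263 FPKM in control, about 345 and 226 fragments. The ratio of 1.70 has an exact binomial interval of 1.43 to 2.01 for counting error alone. With the deposited log2 fold change of 0.77, the implied error of 0.70 was nearly as large, and unadjusted p = 0.0303 gave q = 0.444 in the authors' deposited table. Of tested genes with a mean of 0.1 to 1 FPKM, 14.1% had a change as far from 0 as that of Gli1 or farther. Antisense to Gli1, Gm47200 was listed at 0 in both groups, and Arhgap9, which shares 62 exon bases with Gli1, stood at 0.127 FPKM in Ptbp1_cKO and 0.151 FPKM in control.

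Gli2 (chromosome 1, 118834132 to 119053619), the main activator at the start of a Hedgehog response, had its lower level in Ptbp1_cKO. It stood at 0.537 FPKM in Ptbp1_cKO and 0.873 FPKM in control, about 698 and 1259 fragments if its longest transcript of 6637 bases supplied them all. The log2 fold change of -0.70 had an implied error of 0.76, with unadjusted p = 0.105 and q = 0.716 in the authors' deposited table. Gli2 has 9 annotated transcripts, the next longest of 1411 bases, so its FPKM depends on how fragments were divided among them. Changes this far from 0 or farther were found for 16.5% of tested genes in the same band of levels.

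Gli3 (chromosome 13, 15463235 to 15730026), the main source of GLI repressor, had 0.875 FPKM in Ptbp1_cKO and 1.08 FPKM in control. The log2 fold change was -0.30 with an implied error of 0.97 and q = 0.999 in the authors' deposited table. Changes at least this far from 0 were found for 47.6% of tested genes in that band. Gli3 made up nearly equal shares of the summed GLI FPKM, at 47.1% in Ptbp1_cKO and 48.8% in control. Gli2 held 28.9% in Ptbp1_cKO and 39.4% in control, and Gli1 held 24.0% in Ptbp1_cKO and 11.9% in control. The sum of the GLI factors was 1.86 FPKM in Ptbp1_cKO and 2.22 FPKM in control. Expressed as a ratio of levels, Gli1 stood at 0.832 of Gli2 in Ptbp1_cKO and 0.301 of Gli2 in control; this shift in ratio joins changes that did not pass the threshold and was not tested.

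**Figure D3:**
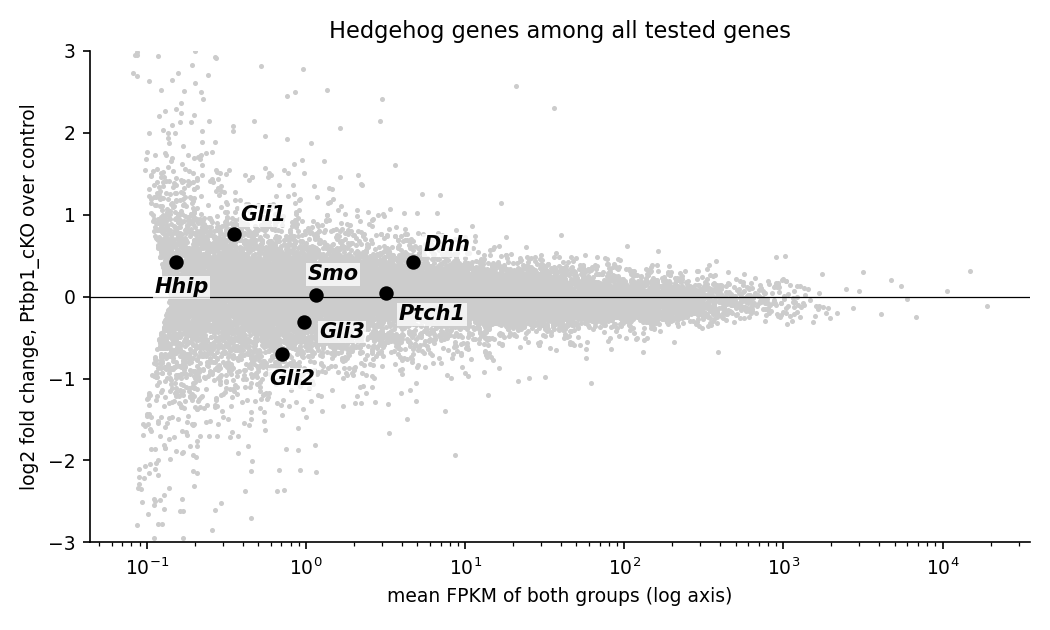
Log2 fold change, Ptbp1_cKO over control, against mean FPKM on a log axis for 21986 tested genes (grey) and the 7 tested Hedgehog genes (black). The Hedgehog genes lie inside the grey cloud, with Gli1 highest at 0.77 and Gli2 lowest at -0.70. Of the 22020 tested genes above 0 in both groups, 34 lie more than 3 from 0, beyond the axis. Tested genes at 0 in a group are not drawn.

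The wider pathway was read from 6 lists of 60 genes, of which 54 were tested. The lists were chosen with earlier results of these data known. Counts from them are therefore no test against the shares of tested genes given beside them. None passed q under 0.05, set against 0.458% of tested genes higher and 0.703% lower in the authors' deposited table. At an unadjusted p under 0.05, 4 were higher in Ptbp1_cKO and 1 lower, beside 4.38% and 4.59% of all tested genes. Of these 5, 3 were co-receptors or ligand-binding proteins of the cell surface, drawn from a list with 5 tested genes.

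Boc, a co-receptor that helps present ligand to Patched, had 1.18 FPKM in Ptbp1_cKO and 0.891 FPKM in control (unadjusted p = 0.0146 in the authors' deposited table, q = 0.318). Gas1, a membrane-anchored co-receptor, had 0.962 FPKM in Ptbp1_cKO and 0.736 FPKM in control (unadjusted p = 0.0494 in the authors' deposited table, q = 0.554). Gpc3, a glypican that binds ligand and competes with Patched for it, had 0.999 FPKM in Ptbp1_cKO and 0.670 FPKM in control (unadjusted p = 0.00720 in the authors' deposited table, q = 0.219). Cdon, a co-receptor related to Boc, had 1.62 FPKM in Ptbp1_cKO and 1.67 FPKM in control. On the log2(FPKM + 0.1) scale the median difference over the 6 genes of the list was 0.26, beside 0.005 over all tested genes.

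Ligand maturation and release gave 0 calls among 5 tested genes. Scube2, a secreted protein that aids release of lipid-modified ligand, had 10.1 FPKM in Ptbp1_cKO and 9.31 FPKM in control. Disp1, the transporter that frees ligand from the producing cell, had 3.38 FPKM in Ptbp1_cKO and 3.04 FPKM in control, and Scube3, a relative of Scube2, had 1.17 FPKM in Ptbp1_cKO and 1.03 FPKM in control. The median of this list was 0.15 over 5 genes.

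Genes that relay the signal below Smoothened spanned a wide range of levels, from Gpr161, a ciliary receptor that restrains the pathway, at 0.155 FPKM in Ptbp1_cKO and 0.194 FPKM in control, up to Cul3. Cul3, a ubiquitin ligase scaffold that with Spop degrades GLI proteins, had 241.5 FPKM in Ptbp1_cKO and 265.4 FPKM in control. Csnk1a1, a casein kinase that phosphorylates GLI proteins, had 178.7 FPKM in Ptbp1_cKO and 205.7 FPKM in control, and Prkar1a, a regulatory subunit of protein kinase A, had 98.0 FPKM in Ptbp1_cKO and 109.2 FPKM in control. Of the 19 tested genes here, 9 were higher and 10 lower in FPKM, with 0 calls and a median of -0.02.

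Ciliary transport genes, which carry the pathway through the primary cilium and also build the sperm tail, had lower FPKM in Ptbp1_cKO for 8 of 10. Of the tested genes with a mean of at least 10 FPKM, where 7 of these 10 lie, 60.8% were lower. Arl13b, a ciliary GTPase, had 33.6 FPKM in Ptbp1_cKO and 43.7 FPKM in control (unadjusted p = 0.0206 in the authors' deposited table, q = 0.383). Ift172 was one of the 2 exceptions, at 239.8 FPKM in Ptbp1_cKO and 210.7 FPKM in control, whereas the motor subunit Kif3a had 92.6 FPKM in Ptbp1_cKO and 102.1 FPKM in control and Ift122 had 58.5 FPKM in Ptbp1_cKO and 62.8 FPKM in control. The list median was -0.13. Spermatocyte markers had values in the same direction, with all 7 lower in FPKM and 0 past the threshold. Their summed level was 914.3 FPKM in Ptbp1_cKO and 1045 FPKM in control, and none of the 7 was at 0. Other germ cell markers went the other way. Spermatid markers were higher for 5 of 8 (median 0.10) and spermatogonial markers for 5 of 7 (median 0.18). The part of germ cells in the ciliary values was not tested.

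Among 11 reported GLI target genes, the 9 that were tested all had a higher FPKM in Ptbp1_cKO and 0 passed the threshold. For comparison, FPKM was higher for 56.0% of tested genes with a mean of 0.1 to 1 FPKM and 57.8% of those with 1 to 10 FPKM. Since the list was chosen with earlier results of these data known, its count is no test against these shares. The cell cycle kinase gene Cdk6 had 2.65 FPKM in Ptbp1_cKO and 2.42 FPKM in control, the repressor Snai1 had 2.36 FPKM in Ptbp1_cKO and 1.94 FPKM in control, and the cyclin Ccnd1 had 2.004 FPKM in Ptbp1_cKO and 1.89 FPKM in control. The list's median was 0.17 over 10 genes. Markers of some other cells were higher in FPKM as well, for 9 of 9 in stroma and matrix, 6 of 6 in endothelium and 8 of 8 in leukocytes. Leydig cell markers were split, 5 higher and 5 lower, and all 7 spermatocyte markers were lower. The epididymis markers summed to 8.68 FPKM in Ptbp1_cKO and 0.0561 FPKM in control. The part of these cells in the values of the target genes was not tested. Bmp4, a growth factor of the TGF-beta family, was singled out after its values were seen, since it had the largest difference of the 60 genes. It stood at 1.96 FPKM in Ptbp1_cKO and 0.622 FPKM in control, a ratio of 3.16, with a log2 fold change of 1.66 and an implied error of 1.36. Its unadjusted p was 0.0555 and its q 0.576 in the authors' deposited table.

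Zinc-finger factors related to the GLI proteins gave no common direction, with 3 higher and 3 lower of 6 tested and a median of -0.007. Glis3, a GLI-similar factor, had 0.405 FPKM in Ptbp1_cKO and 0.235 FPKM in control (unadjusted p = 0.0275 in the authors' deposited table, q = 0.432). Zic5 had 8.65 FPKM in Ptbp1_cKO and 9.45 FPKM in control, and Glis2 had 0.839 FPKM in Ptbp1_cKO and 0.825 FPKM in control.

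**Figure D4:**
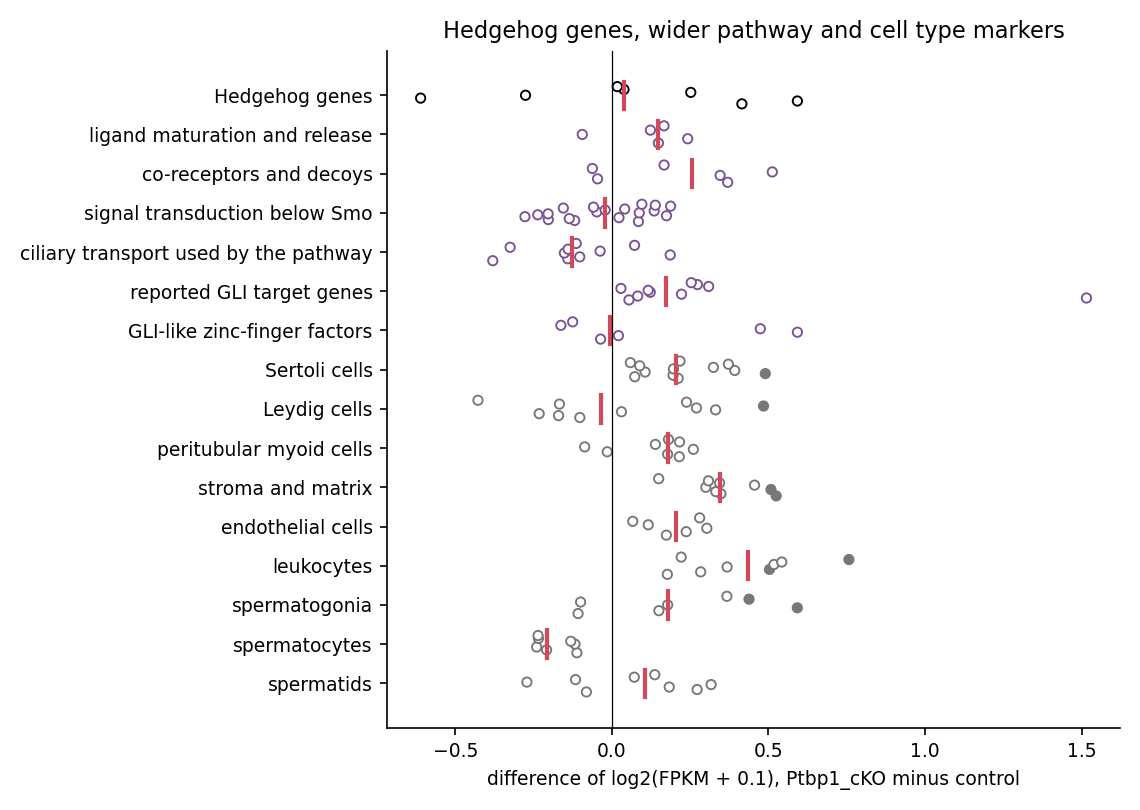
Difference of log2(FPKM + 0.1), Ptbp1_cKO minus control, for each gene with at least 0.1 FPKM in a group, by list. The epididymis list is not drawn. Red bars are list medians and filled points passed q under 0.05. Hedgehog genes spread from -0.61 for Gli2 to 0.59 for Gli1, and filled points occur in marker lists but in none of the Hedgehog or pathway lists.

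Markers of the cells that send and receive the signal were compared in the same way. Over all tested genes, 0.458% passed the threshold higher and 0.703% lower in the authors' deposited table. The marker lists were chosen with earlier results of these data known, so their calls are no test against these shares. All 12 Sertoli cell markers had a higher FPKM in Ptbp1_cKO, 1 of them, Clu, past the threshold, with a list median of 0.20 and a range of 0.06 to 0.49. Dhh, at 0.42 on this scale, lay inside that range. The summed Sertoli marker level was 1380 FPKM in Ptbp1_cKO and 1010.4 FPKM in control, a ratio of 1.37 that became 1.16 without Clu, beside 1.34 for Dhh. None of the 12 was at 0, and the part of the Sertoli cell share in the Dhh value was not tested.

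For the receiving cells, peritubular myoid markers had a higher FPKM in Ptbp1_cKO for 6 of 8, with 0 calls and a median of 0.18. Their sums were 228.9 FPKM in Ptbp1_cKO and 202.2 FPKM in control. Leydig cell markers were split, 5 higher and 5 lower, with Insl3 alone past the threshold, a median of -0.04 and sums of 1462 FPKM in Ptbp1_cKO and 1193 FPKM in control. Insl3 alone supplied 1049 FPKM of the sum in Ptbp1_cKO and 749.6 FPKM in control, so these sums mainly follow Insl3. On this scale Gli1 was at 0.59 and Gli2 at -0.61. Endothelial markers were higher in FPKM for 6 of 6 (sums of 11.8 FPKM in Ptbp1_cKO and 10.1 FPKM in control), and leukocyte markers for 8 of 8 with 2 past the threshold (sums of 53.3 FPKM in Ptbp1_cKO and 38.6 FPKM in control). In none of these lists was a gene at 0 in both groups, and the part of these cells in the values of Gli1, Gli2, Boc, Gas1, Gpc3, Bmp4 and the other GLI targets was not tested. Spermatogonial markers were higher in FPKM for 5 of 7, of which Kit and Uchl1 rose past the threshold, and spermatid markers for 5 of 8 with 0 past it.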

How the data were processed

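Groups come from the library titles: 3 Ptbp1_cKO and 3 control libraries of whole testis, stranded per the labels' protocols. Per the submitters' processing notes, the build was mm10 and the tools were STAR 2.6.1d, Trimmomatic 0.38, bcl2fastq 2.20, Cuffdiff and Cufflinks, with settings not given in the sources used here. Each group has 1 deposited FPKM per gene. Per the file headers, the authors' table adds a log2 fold change (Ptbp1_cKO over control), a signed statistic that is a score, a p-value and a q-value.

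Calls are Cuffdiff's, at q under 0.05 over the 22048 genes with status OK. The Hedgehog genes and all lists were chosen with earlier results of these data known. Genes named from a pathway list were those with an unadjusted p under 0.05 and the 3 most abundant; some are left out here. List medians are of log2(FPKM + 0.1) over genes with at least 0.1 FPKM in a group, which understates changes of low genes. Positions and exon overlaps are from GENCODE M21 (1-based), which matched 98.6% of the deposited identifiers, and promoter windows from RefSeq. BLAST 2.17.0 found no other gene at 95% identity over 80% of the longest transcript of any of the 9 genes. Fragment weights came from single-exon genes of 1500 to 6000 bases with 1 transcript, where 100.0% of 428 low values in Ptbp1_cKO and 99.5% of 430 in control lay within 1% of whole steps. The step search and the normal p were tested on simulated data. Intervals are exact binomial at 95% and cover counting error only. Alternatives were other p-values, filters, thresholds, pseudocounts and scalings.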

Additional observations from a re-analysis of the deposited data

How the results depend on the processing

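No paired analysis was possible because the deposited table holds 1 value per group; for the same reason no replicate could be left out. With the p from the statistic under a normal distribution, the tested Hedgehog genes and the wider pathway again gave 0 calls in each direction, and Gli1 had an unadjusted p of 0.274 in place of 0.0303, while calls over all tested genes went to 9 higher and 10 lower, against 101 and 155. At q under 0.01 these were 50 and 80. Counting an unadjusted p under 0.05 gave 1 Hedgehog gene higher (Gli1), 4 wider pathway genes higher and 1 lower, and 966 and 1013 of all tested genes. Adjusting only over the 15793 tested genes with at least 1 FPKM kept 4 of the Hedgehog genes in the test and called none; the filter at 0.1 FPKM removed no tested gene. The 3 scalings shifted all genes by only 0.002 to 0.012 on the log2 scale. A pseudocount of 1 drew low genes towards 0: Gli1 was at 0.20 and not 0.77, Gli2 at -0.29 and not -0.70, Hhip at 0.05 and not 0.42, and Shh at 0.02 and not 1.27. Of the list medians, that of the epididymis list alone moved by over 0.1: it was 3.21 as reported, 0.87 with a pseudocount of 1, 6.38 with 0.01 and 2.33 without the filter on low values; 4 of its 5 tested genes are listed at 0 in control. The Sertoli marker sum without Clu was an alternative chosen after seeing the data. Shh and Ihh rest on few fragments. For the other Hedgehog genes the error was wider than counting error if the deposited statistic is the fold change divided by its standard error.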
